A study of Mus musculus with 10 samples.

Results

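Spots of mouse liver tumours that were rich in the messages of dividing cells were compared with spots of the same sections that were poor in them. Spatial transcripts had been captured on 10x Genomics Visium slides, on which each barcoded spot counts unique molecular identifiers (UMIs), each tracing 1 captured RNA molecule, and can hold several cells. The 2 sides were chosen by 5 genes of mitosis, Mki67, Top2a, Cdk1, Ccnb2 and Birc5: in each tumour section, spots over tissue were ordered by the summed UMIs of these genes per 10000 UMIs, and the highest 20% (mitosis-rich) and the lowest 20% (mitosis-poor) were kept. Each side held 5202 spots, of 26022 spots of the tumour sections that passed the UMI minimum and 49916 spots on all arrays of the series. No spot was assigned to neoplasia, to non-neoplastic liver or to extramedullary hematopoiesis (blood formation outside the marrow), regions that the paper marked on its slides by their morphology. Tissue NEJ146 gave 890, 897, 975 and 834 spots per side in its sections A, B, C and D, and the single sections of NEJ634, NEJ723 and NEJ687 gave 377, 435 and 794.

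All 4 tissues are labelled hepatoblastoma and came, frozen, from ABC-Myc mice on a C57BL/6J background, in which Cre driven by the albumin promoter (Alb-Cre) removes a floxed STOP cassette and lets the CAG promoter express human MYC. Cre is thus active in hepatocytes and their precursors, the oncogene is the same in every tumour, and each tumour is 1 tissue block. The age and sex of the animals are not given in the labels, and the human transgene is not among the features counted. The 3 other tissues of the series, NEJ638, NEJ654 and NEJ677, carry the same label, are called healthy livers in the text of the study, and enter here only as a background for the 5 genes. The NEJ146 libraries were labelled total RNA and the others polyA RNA, no tissue call was used for NEJ146, and a minimum of 8000 UMIs per spot stood in for it against 2000 UMIs plus the in-tissue call elsewhere, so the NEJ146 area is the least certain.

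A cell that divides first copies its DNA in S phase, with helicases of the MCM family unwinding the strands, and then, in mitosis, condenses its chromosomes, attaches them by kinetochores to a spindle and destroys the mitotic cyclins through the ubiquitin ligase APC/C. In differentiated liver most hepatocytes are quiescent and devote their transcripts to plasma proteins, the urea cycle and drug metabolism by cytochrome P450 enzymes. Fetal liver, which hepatoblastoma resembles, is also a site of red blood cell formation, in which erythroblasts divide several times before they fill with haemoglobin. Dividing tumour cells and dividing erythroblasts therefore share the cell cycle genes, and a spot can hold both.

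Genes of the cell cycle are commonly read in 2 waves. Promoters of S phase genes often carry sites for E2F factors, and promoters of mitotic genes often carry CCAAT boxes and a CHR element (TTTGAA or TTTAAA), through which the DREAM and MuvB complexes act. A stretch of 150 bases ending just before the start of transcription is shown for a gene of the selection (Cdk1), a mitotic gene outside it (Ube2c) and a replication gene (Mcm6), because these stand for the groups compared below. The sequences are RefSeq's on GRCm38.p6, in lower case and 5′ to 3′ on the strand of the gene, with capitals for matches on either strand to CCAAT, to the CHR letters TTTGAA or TTTAAA, and to the E2F-type letters TTTCCCGC or TTTGGCGC or TTTCGCGC. Neighbouring matches may overlap, as in the longest capital run of Mcm6, which reads as an E2F-type match on each strand. They lie at chr10:69352913-69353062 (minus strand, Cdk1), chr2:164769779-164769928 (plus strand, Ube2c) and chr1:128359706-128359855 (minus strand, Mcm6).
Cdk1: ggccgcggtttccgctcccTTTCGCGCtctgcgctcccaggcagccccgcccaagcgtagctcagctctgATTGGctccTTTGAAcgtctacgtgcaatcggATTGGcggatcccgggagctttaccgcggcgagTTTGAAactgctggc
Ube2c: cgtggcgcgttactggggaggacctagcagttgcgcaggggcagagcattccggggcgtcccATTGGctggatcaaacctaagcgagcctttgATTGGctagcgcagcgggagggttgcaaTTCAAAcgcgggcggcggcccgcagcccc
Mcm6: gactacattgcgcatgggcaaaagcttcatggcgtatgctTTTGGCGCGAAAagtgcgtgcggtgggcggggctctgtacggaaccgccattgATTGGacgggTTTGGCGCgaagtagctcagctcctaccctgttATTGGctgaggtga

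Over windows from 250 bases before to 50 after the start, the CHR letters were found in 79.1% of 43 promoters of the spindle and kinetochore list, in 52.6% of 19 promoters of mitotic cyclins, kinases and ubiquitin ligases, and in 25.9% of 54 promoters of DNA replication genes. All 32851 promoters of the reference table held them in 27.6%. The E2F-type letters showed the other order, with 33.3% of replication promoters, 2.3% of spindle promoters and 1.8% of all promoters. They were found in 5.3% of the mitotic cyclin promoters, in 36.4% of 11 repair promoters and in 1 of 5 promoters of the selecting genes. The stretches printed for Cdk1 and Mcm6 thus hold a match that most promoters of their groups lack. The chromosome condensation list was high in both, with E2F-type letters in 23.8% and CHR letters in 52.4% of 21 promoters. CCAAT was found in 67.4% of spindle, 63.0% of replication and 37.4% of all promoters, but also in 61.0% of 41 promoters of the cytochrome P450 and conjugation list, in which the E2F-type letters were found in 0.0%. Of the 183 cell cycle genes in 6 lists, 141 matched the table, and a match describes letters in a window and no binding.

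The 5 selecting genes are given as a description, since their counts defined the sides. Mki67, a protein that coats mitotic chromosomes, reached 154, 152, 144 and 169 counts per 1000000 UMIs (CPM) in the rich spots of NEJ146 sections A to D against 27.3, 28.8, 29.1 and 32.7 in the poor spots. In NEJ634, NEJ723 and NEJ687 it was 259, 246 and 218 CPM on the rich side against 99.8, 89.4 and 44.3. The poor spots were thus not free of it in any section. Cdk1, the kinase that drives entry into mitosis, was 244, 233 and 150 CPM in the rich spots of these 3 tumours against 103, 88.1 and 40, and 139 to 153 against 29.4 to 37.1 over the NEJ146 sections. Top2a, which untangles DNA, Ccnb2, a mitotic cyclin, and Birc5, a subunit of the chromosomal passenger complex, had the same order in 7 of 7 sections.

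All 5 together came to 6.75 to 7.46 UMIs per 10000 in rich spots of NEJ146 and to 10.3, 9.70 and 7.95 in NEJ634, NEJ723 and NEJ687, against 1.34 to 1.55, 4.47, 3.53 and 2.0 in poor spots. As a ratio of rich to poor, the contrast was hence narrowest in NEJ634. Taken over whole sections, the 5 genes came to 377 to 422 CPM for NEJ146 and to 706, 632 and 467 CPM for NEJ634, NEJ723 and NEJ687, beside 126, 45.4 and 24 CPM for NEJ638, NEJ654 and NEJ677. Exact Poisson 95% intervals of the last 3 values were 123 to 129, 43.4 to 47.4 and 22.5 to 25.6 CPM, for counting error only. Each side is a slice of a continuous range and not a type of spot. In NEJ687, the rich spot with the lowest score had 6.374 per 10000 and the next spot left out 6.372, and the edge of the poor side lay between 2.826 and 2.827. In NEJ634 these edges lay at 9.02 and at 5.424.

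Single spots carried few UMIs of the 5 genes, with medians of 10 (NEJ687) to 24 (NEJ634) on the rich side and 2 to 13 on the poor side, so counting error contributes to which side a spot is on. The sides also differed in depth. The median spot of the rich side held 15266 to 19322 UMIs in NEJ146 against 20471 to 24930 on the poor side, 22662 against 30914 in NEJ634, 17425 against 19348 in NEJ723, and 12055 against 11732 in NEJ687. Section totals were 61627315 to 117556249 UMIs. Counts were summed over the spots of each side, the tumour was taken as the unit, and for NEJ146 the counts of the 4 sections were averaged. The same side of different NEJ146 sections differed by more than sampling noise (chi-square per degree of freedom 4.24 to 7.15 for pairs among A, B and C). Section D stood apart from the other 3, at 15.1 to 22.6, and without it edgeR called 0 genes higher and 0 lower, as with it.

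**Figure D1:**
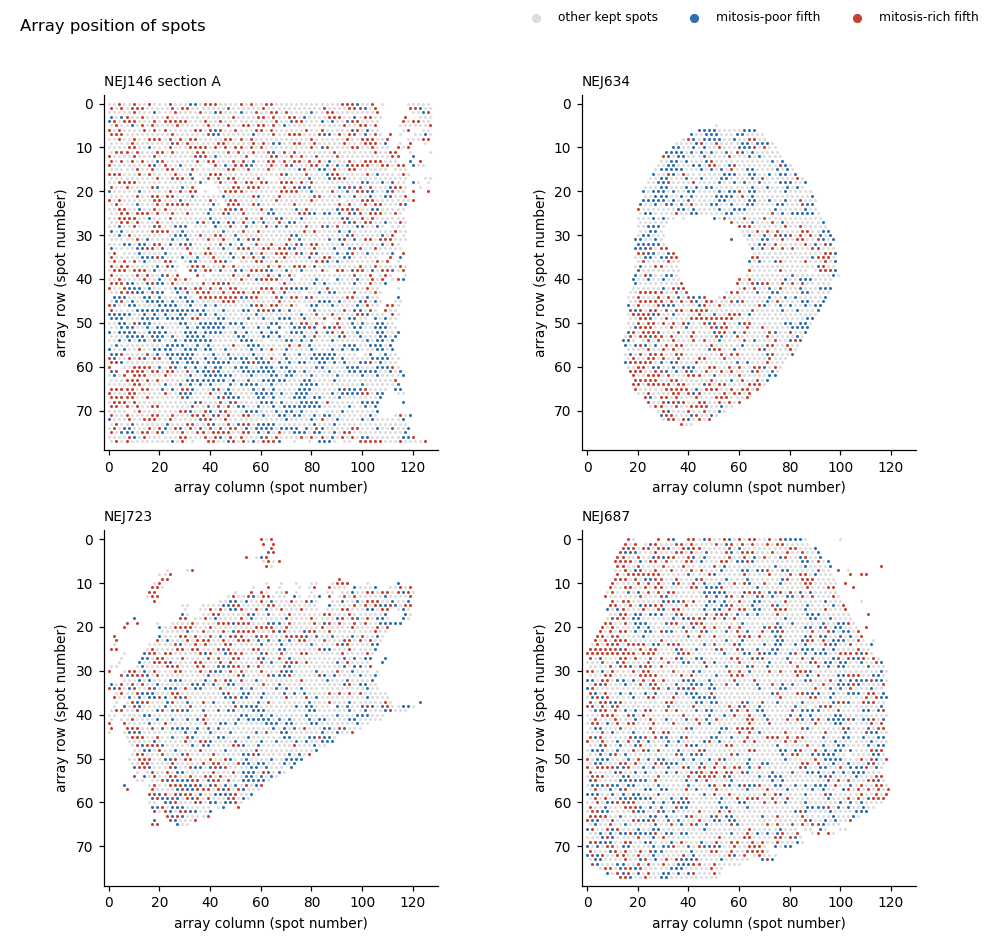
Array column and row (spot number) of the spots kept in NEJ146 section A, NEJ634, NEJ723 and NEJ687, with mitosis-rich spots in red, mitosis-poor spots in blue and the other spots in grey. Poor spots form a band across NEJ146 and the upper part of NEJ634, and the sides are more mixed in NEJ723 and NEJ687.

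Spots next to a member gave a measure that the member's own counts did not set. The up to 6 adjacent spots scored 4.80 around rich and 3.18 around poor spots in NEJ146, as the mean of 4 sections. The scores were 8.05 and 6.61 in NEJ634, 6.80 and 6.15 in NEJ723, and 5.13 and 4.35 in NEJ687. The difference was 1.12 ± 0.48 UMIs per 10000 (SD, n = 4 tumours) and had the same sign in 4 of 4 tumours. It is given without a test, because these scores use the same 5 genes that ordered the spots. Rich spots made up 30.0%, 31.2%, 26.2% and 26.7% of the neighbours of rich spots in NEJ146, NEJ634, NEJ723 and NEJ687, and 10.0%, 12.3%, 17.2% and 15.8% of the neighbours of poor spots. The map of the 2 sides shows the same, with larger areas of 1 side in NEJ146 and NEJ634 than in the other two. At 2 steps away the difference was 0.96 ± 0.35 UMIs per 10000 (SD, n = 4).

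Over all genes, no single gene passed the test. edgeR's quasi-likelihood test with the tumour as a block was fitted to 11729 genes, those averaging 2 CPM or more over the side totals and apart from the 5 selecting genes, and called 0 genes higher and 0 lower (0% of genes in each direction) at a Benjamini-Hochberg adjusted p under 0.05, the smallest adjusted p being 0.102. At an unadjusted p under 0.05, 899 genes were higher (7.66%) and 1172 lower (9.99%). DESeq2 on the same counts called 31 higher and 141 lower, and limma on the log2 differences of the 4 tumours called 0 and 0. Without NEJ687, edgeR called 0 higher and 22 lower. Genes higher in all 4 tumours numbered 1642 (14.0% of those tested), and genes lower in all 4 numbered 1584 (13.5%). The counts of list members were also taken with each spot thinned to 2000 UMIs (NEJ146 8000) before it was scored and summed, so that all spots of a tumour weighed alike. The full medians were 28933, 19639 and 13074 UMIs per spot in NEJ634, NEJ723 and NEJ687. Thinning therefore left few UMIs of the 5 genes to order spots by, and fewest in these 3 tumours. The part of this lost depth in the thinned counts and medians was not tested. With spots thinned, 6.33% of genes were higher and 8.23% lower in all 4 tumours. These shares are the background for the counts of list members below. Differences are fitted log2 values of rich over poor after TMM scaling, which put the median gene at -0.01. Scaling by library totals alone moved that median by 0.12, so all values are relative to the median gene.

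Genes of the spindle and kinetochore, which attach and pull the chromosomes, were higher in the rich spots of every tumour in 41 of 45 cases, with a median log2 difference of 0.45. With spots thinned it was 8 of 45 (background 6.33%), with a median of 0.24 and tumour medians of 0.50, 0.06, -0.04 and 0.17, so the direction in NEJ723 was not kept. With all UMIs the medians of NEJ146, NEJ634, NEJ723 and NEJ687 were 0.75, 0.37, 0.18 and 0.32, and 41 of the 45 reached an unadjusted p under 0.05. Summed over the list, the level was 1354 to 1504 CPM in rich and 762 to 857 CPM in poor spots of NEJ146. It was 2230 and 1636 CPM in NEJ634, 1906 and 1561 in NEJ723, and 1351 and 1057 in NEJ687. Rich was above poor in 7 of 7 sections, with 1 section per tumour outside NEJ146, but the poor spots of NEJ634 and NEJ723 stood above the rich spots of NEJ146.

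Stmn1 (stathmin), which destabilises microtubules, was at 235, 224, 231 and 229 CPM in rich spots of NEJ146 A to D and 154, 147, 163 and 155 CPM in poor spots. In NEJ634, NEJ723 and NEJ687 it was 355, 267 and 162 CPM against 264, 226 and 135. Its fitted log2 difference was 0.26 (SE 0.07, edgeR adjusted p = 0.166), with rich above poor in 7 of 7 sections. Cenpa, the histone H3 variant that marks centromeres, had a log2 difference of 0.40 (SE 0.12, edgeR adjusted p = 0.173) and was at 94.4 against 44.9 CPM in NEJ146 A and at 87.9 against 76.7 CPM in NEJ687. Nuf2, a kinetochore protein of the NDC80 complex named after its values were seen, had 0.57 (SE 0.09, edgeR adjusted p = 0.134) with rich spots above poor spots in each section. Spc24, of the same NDC80 complex, was an exception. It was at 108 and 83.8 CPM as the mean of NEJ146, but at 138 against 145 CPM in NEJ634, and its fitted log2 difference was 0.02 (SE 0.08). The other exceptions to the order in all 4 tumours were Knstrn, Kif20b and Plk1, the polo-like kinase (named after its values were seen), whose log2 differences were 0.67, 0.30, -0.01 and 0.42 in NEJ146, NEJ634, NEJ723 and NEJ687.

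Among mitotic cyclins, kinases and ubiquitin ligases, 22 of 26 members were higher in all 4 tumours (median log2 difference 0.35), and 6 of 26 with spots thinned (background 6.33%, median 0.35). Ube2c, the ubiquitin-conjugating enzyme of APC/C whose promoter is printed above, was at 149, 194, 189 and 179 CPM in rich spots of NEJ146 A to D and at 67.6, 77.0, 74.7 and 83 CPM in poor spots. It was 222 against 158 CPM in NEJ634, 173 against 144 in NEJ723 and 123 against 95 in NEJ687. Rich exceeded poor in every section, by a fitted log2 difference of 0.47 (SE 0.15, edgeR adjusted p = 0.20). Its partner enzyme Ube2s had 0.33 (SE 0.09, adjusted p = 0.168), with 311 ± 38 against 185 ± 21 CPM in NEJ146 (mean ± SD, n = 4 sections). Cks2, a small subunit of cyclin-dependent kinases, was one of the 4 members without 1 direction after scaling, next to Lin9, Lin54 and Pttg1. Its scaled log2 differences were 0.39, -0.02, -0.09 and 0.06 in NEJ146, NEJ634, NEJ723 and NEJ687. In CPM its rich side was the higher one in 7 of 7 sections, with 193 against 192 CPM in NEJ723.

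Chromosome condensation and nuclear lamina genes were higher in all 4 tumours in 18 of 20 cases, all but Ncapd3 and H2afv, with a median log2 difference of 0.33, and in 6 of 20 at 0.21 with spots thinned. H2afz, the replacement histone H2A.Z, was at 797 ± 67 against 475 ± 38 CPM in NEJ146 (SD, n = 4 sections). Its levels were 1210 against 956 CPM in NEJ634, 1065 against 943 in NEJ723 and 764 against 635 in NEJ687, a fitted log2 difference of 0.26 (SE 0.09, edgeR adjusted p = 0.223). Banf1, which bridges DNA and the nuclear envelope, had log2 differences of 0.31, 0.11, 0.01 and 0.03 in NEJ146, NEJ634, NEJ723 and NEJ687.

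Genes of S phase had positive medians as well. Of 55 DNA replication genes, 37 were higher in all 4 tumours, 38 reached an unadjusted p under 0.05 and 0 were lower in all 4, with a median of 0.31 and tumour medians of 0.60, 0.20, 0.12 and 0.24 in NEJ146, NEJ634, NEJ723 and NEJ687. With spots thinned, 12 of 55 were higher in all 4 (background 6.33%), at a median of 0.22. Mcm6, a subunit of the replicative helicase, was at 145, 138, 139 and 166 CPM in rich spots of NEJ146 A to D and 71.3, 72.9, 76.8 and 90.4 CPM in poor spots. In NEJ634 it was 195 against 152 CPM, in NEJ723 160 against 146, and in NEJ687 148 against 122. Rich spots were above poor spots in each section, and the difference was small in NEJ723 (log2 0.03 after scaling). The fitted log2 difference was 0.30 (SE 0.12, edgeR adjusted p = 0.258). Mcm7 had 0.26 (SE 0.09), and Dut, which keeps uracil out of DNA, had 0.23 (SE 0.11) but a scaled difference of -0.08 in NEJ723.

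Of 17 genes of DNA repair by recombination, 14 were higher in all 4 tumours (median 0.40), and 6 with spots thinned (median 0.33). Topbp1, which activates the checkpoint kinase ATR, had log2 differences of 0.53, 0.22, 0.21 and 0.21 in the 4 tumours, and Rad21, a cohesin subunit, had 0.42, 0.23, 0.07 and 0.17. The list of G1 cyclins, CDK inhibitors and pocket proteins was divided. Of its 18 tested members, the G1 and S phase drivers Ccne2, Cdk4 and Cdk2 and the pocket protein Rbl1 were higher in all 4 tumours, and so were the anti-proliferative factor Btg2 and the CDK inhibitor Cdkn2d. Btg1, of the same family as Btg2, was lower in all 4. With spots thinned, 3 of the 18 were higher and 3 lower in all 4. Cdk4, the G1 kinase, had a fitted log2 difference of 0.21 (SE 0.07) and Btg1 of -0.19 (SE 0.06). Over the 6 lists, 138 of 181 tested members were higher and 1 was lower in all 4 tumours, beside 14.0% and 13.5% of all genes. With spots thinned these were 41 and 3 of 181, beside 6.33% and 8.23% of all genes.

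**Figure D2:**
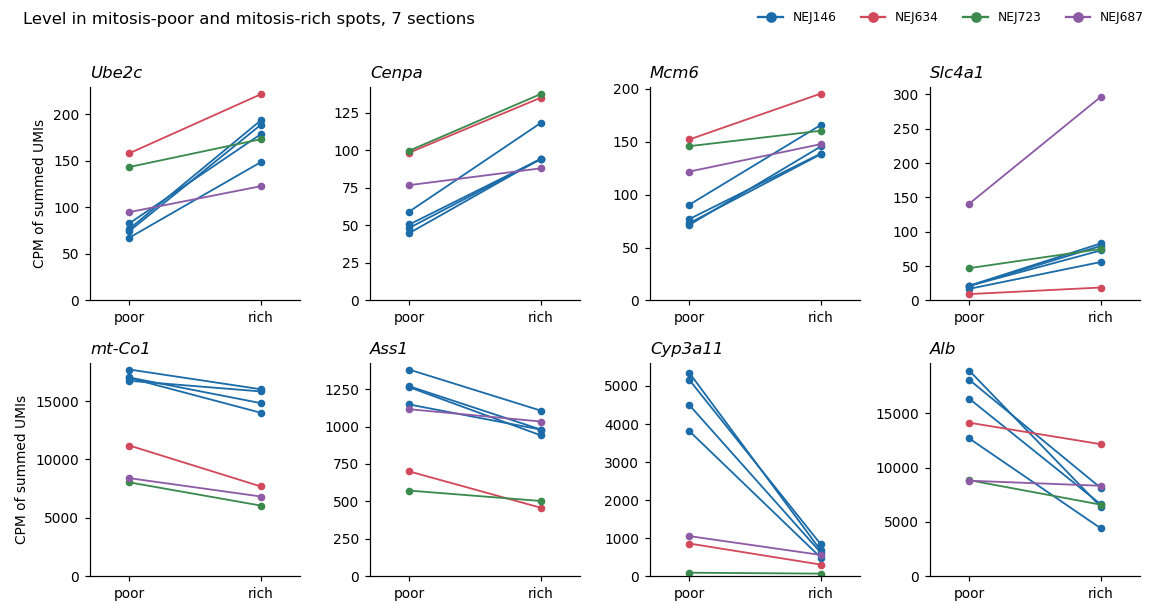
CPM of 8 genes in mitosis-poor and mitosis-rich spots, 1 panel per gene with its own axis from 0 and 1 line per section (NEJ146 has 4), coloured by tumour. Lines of Ube2c, Cenpa, Mcm6 and Slc4a1 run upwards in 7 of 7 sections, and those of mt-Co1, Ass1, Cyp3a11 and Alb run downwards in 7 of 7.

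Genes that build ribosomes had medians closer to 0. Of 30 nucleolar genes of ribosome biogenesis, 9 were higher and 0 lower in all 4 tumours, beside 14.0% and 13.5% of all genes. Their median log2 difference was 0.11, with tumour medians of 0.32 in NEJ146 and 0.04, 0.03 and 0.02 in NEJ634, NEJ723 and NEJ687. Npm1, the nucleolar chaperone nucleophosmin, was at 1011 ± 82 against 695 ± 82 CPM in NEJ146 (SD, n = 4 sections), 1230.4 against 1063 in NEJ634, 1176 against 1070 in NEJ723 and 857 against 783 in NEJ687. Of 76 cytosolic ribosomal proteins 0 were higher and 35 lower in all 4 tumours, at a median of -0.07, which is 0.05 when scaled by library totals alone, so that list has no direction that holds under both scalings. With spots thinned, 3 of the nucleolar genes were higher and 17 of the ribosomal proteins lower in all 4, beside 6.33% and 8.23% of all genes. Targets of p53 had a median of 0.05 over 11 tested, and immediate early genes of -0.12 over 11, with -0.52 in NEJ146 but 0.14 in NEJ634. These lists held 3 and 2 members higher and 1 and 0 members lower in all 4 tumours, beside 14.0% and 13.5% of all genes.

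Transcripts of the mitochondrial genome were lower in the rich spots. They made up 6.0%, 5.99%, 6.44% and 6.33% of UMIs in rich spots of NEJ146 A to D against 7.13%, 7.37%, 7.12% and 7.78% in poor spots. The shares were 3.10% against 4.56% in NEJ634, 2.43% against 3.13% in NEJ723 and 2.98% against 3.60% in NEJ687. In 7 of 7 sections the rich side was the lower one. Of 12 tested mitochondrial genes, 11 were lower in all 4 tumours, at a list median of -0.49, which was -0.24 with spots thinned, again with 11 of 12 lower. The exception was mt-Atp8, named after its values were seen, at 28.9 ± 8.6 CPM in rich and 23.8 ± 3.5 in poor spots of NEJ146 (SD, n = 4 sections). mt-Co1, which encodes the catalytic subunit of cytochrome c oxidase, was at 16008, 13994, 15822 and 14819 CPM in rich spots of NEJ146 A to D and 17700, 16977, 16733 and 17016 in poor spots, and at 7683, 6044 and 6821 against 11188, 8032 and 8393 CPM in NEJ634, NEJ723 and NEJ687. Its fitted log2 difference was -0.48 (SE 0.07, edgeR adjusted p = 0.119). Since these transcripts are part of the total by which the score is divided, the spots were also ordered with the mitochondrial genes left out of the total, and the list median was then -0.41.

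Nuclear genes of oxidative phosphorylation had a median of -0.13 over 72 genes, of which 23 were lower (background 13.5%) and 0 higher in all 4 tumours. By tumour the median was 0.05 in NEJ146 against -0.26, -0.18 and -0.09 in NEJ634, NEJ723 and NEJ687. The median was -0.07 with depth matched, and with spots thinned it was -0.03, with 8 of 72 lower in all 4 tumours beside 8.23% of all genes. Uqcr11, of complex III, was at 3146 ± 230 against 2494 ± 216 CPM in NEJ146 (SD, n = 4 sections) but at 2447 against 2682 CPM in NEJ634. Cox4i1, of the same oxidase as mt-Co1, had scaled log2 differences of 0.12, -0.23, -0.18 and -0.12 in NEJ146, NEJ634, NEJ723 and NEJ687. Scaled by library totals alone, both fitted differences turned slightly positive.

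Among the 32 lists, the median farthest from 0 was that of drug metabolism. Of 39 tested genes of the cytochrome P450 and conjugation list, 36 were lower in the rich spots of all 4 tumours and 38 had an unadjusted p under 0.05, at a median log2 difference of -1.03. With spots thinned, 15 of 39 were lower in all 4 (background 8.23%), at a median of -0.65. The list summed to 4309 to 5502 CPM in rich and 14388 to 18830 CPM in poor spots of NEJ146, to 3067 against 5616 in NEJ634, 5266 against 6514 in NEJ687 and 2575 against 2771 in NEJ723. The order held in 7 of 7 sections, but the tumour medians ran from -2.25 in NEJ146 and -1.21 in NEJ634 to -0.38 in NEJ687 and -0.22 in NEJ723. Whether the P450-high poor spots, most of all in NEJ146, lay in tumour or in non-neoplastic liver was not tested. Cyp3a11, an enzyme that oxidises many drugs, was at 676, 838, 620 and 489 CPM in rich spots of NEJ146 A to D against 5348, 5162, 4500.1 and 3815 CPM in poor spots. In NEJ634, NEJ723 and NEJ687 it was 304, 66.9 and 557 CPM against 858, 90.3 and 1053. The fitted log2 difference was -1.56 (SE 0.37, edgeR adjusted p = 0.163), and its size in NEJ146 was -3.00 against -0.53 in NEJ723. Gstm1, a glutathione transferase, had -1.20 (SE 0.35). The 3 exceptions were Cyp1a2, Cyp2c29 and Cyp2c54 (the last described after its values were seen), each without a lower value in NEJ723. Cyp2c54 was at 3.89 against 40.2 CPM in NEJ146 (means of 4 sections), while in NEJ723 it was at 0.14 against 0 CPM, too few counts to compare. Cyp2c37, named after its values were seen, shared the lowest adjusted p of the fit (0.102), with a log2 difference of -2.16 (SE 0.25).

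Other pathways of the mature hepatocyte were lower too. Of 30 urea cycle and amino acid genes, 23 were lower and 0 higher in all 4 tumours (median -0.50). With spots thinned, 15 were lower in all 4 (background 8.23%) and the median was -0.19. Cps1, the first enzyme of the urea cycle, was at 2200 ± 177 against 2287 ± 43 CPM in NEJ146 (SD, n = 4 sections), 1126 against 1930.2 in NEJ634, 1006 against 1297 in NEJ723 and 2153 against 2385 in NEJ687. The NEJ146 levels overlapped between the sides, and after scaling its log2 difference there was -0.22 beside -0.92 in NEJ634. Ass1, which makes argininosuccinate, had -0.44 (SE 0.10, edgeR adjusted p = 0.161) and Gnmt, a methyltransferase of methionine metabolism, -0.51 (SE 0.12, adjusted p = 0.163). Both were lower in 7 of 7 sections.

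Gluconeogenesis, fructose and glycogen genes were lower in all 4 tumours in 9 of 16 cases (median -0.31). Fatty acid oxidation genes were lower in all 4 in 13 of 25 (median -0.21). With spots thinned these counts were 4 of 16 and 6 of 25 (background 8.23%), at medians of -0.13 and -0.11. Fabp1, the fatty acid carrier, had a scaled difference of 0.05 in NEJ687 beside -0.45, -0.61 and -0.21 in NEJ146, NEJ634 and NEJ723. Cholesterol genes had a median of -0.21 with 8 of 22 lower in all 4 tumours (background 13.5%), and 4 of 22 with spots thinned (background 8.23%). Glycolysis genes showed no common direction after TMM scaling, with a median of -0.02. Of 18, 1 was higher and 2 lower in all 4 tumours, beside 14.0% and 13.5% of all genes. Their median turned positive with library totals alone, and their summed CPM was higher on the rich side in 6 of 7 sections. Gapdh had log2 differences of 0.08, -0.04, -0.11 and -0.12 in NEJ146, NEJ634, NEJ723 and NEJ687, and its fitted value turned positive with library totals alone. Fatty acid synthesis (median -0.12 over 15) and hypoxia genes (median -0.08 over 12) had 0 and 1 members higher in all 4 tumours (background 14.0%). Members lower in all 4 were 3 and 5 (background 13.5%). With spots thinned, 1 of the fatty acid synthesis genes and 1 of the hypoxia genes were lower in all 4, beside 8.23% of all genes. Scaled by library totals alone both medians were slightly positive, at 0.0040 and 0.05, and the summed CPM of the hypoxia list was higher on the rich side in 6 of 7 sections, so neither list has a direction that holds under both scalings. Scd2, a desaturase, was at 642 against 266 CPM in NEJ146 and 1142 against 692 in NEJ634, but at 544 against 598 CPM in NEJ723.

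Plasma proteins of the hepatocyte were lower in all 4 tumours in 25 of 28 cases, all but Ambp, Vtn and Kng1, with a median of -0.28. The median was -0.12 with spots thinned, with 20 of 28 lower in all 4 (background 8.23%), and -0.16 when scaled by library totals alone. Albumin (Alb) was at 6400, 8124, 6616 and 4406 CPM in rich spots of NEJ146 A to D against 18922, 18082, 16338 and 12677 CPM in poor spots, and at 12149, 6583 and 8322 CPM against 14125, 8833 and 8786 in NEJ634, NEJ723 and NEJ687. Rich spots were lower in 7 of 7 sections, clearly so in NEJ146 and by a small margin in NEJ687. The fitted log2 difference was -0.64 (SE 0.21, edgeR adjusted p = 0.206). Apoa2, a protein of high density lipoprotein, had -0.40 (SE 0.07, adjusted p = 0.134), and Apoe -0.34 (SE 0.09). Saa1, an acute phase protein named after its values were seen, had -2.30 (SE 0.27, adjusted p = 0.102). Its values ran from -3.16 to -2.42 over the NEJ146 sections and were -2.43, -0.22 and -1.42 in NEJ634, NEJ723 and NEJ687.

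Oncofetal genes of the liver had a median of 0.31 over 15 tested members, with 0.82 and 0.46 in NEJ146 and NEJ634 but 0.08 and 0.11 in NEJ723 and NEJ687. Their summed level was higher on the rich side only in NEJ146, at 10501 against 6071 CPM (means of 4 sections). It was 8545 against 8824 CPM in NEJ634, 5902 against 6126 in NEJ723 and 14548 against 14624 in NEJ687. Peg3, Igf2bp1, Dlk1 and Meg3 were higher in all 4 tumours (background 14.0%) and 0 members were lower in all 4 (background 13.5%). With spots thinned the median was 0.14, with 4 members higher in all 4 (background 6.33%). Afp, the fetal counterpart of albumin, was at 2878 ± 689 against 1123 ± 86 CPM in NEJ146 (SD, n = 4 sections) and 4510.1 against 3684 in NEJ634, but at 3069 against 3346 CPM in NEJ723 and 4095 against 4013 in NEJ687. H19, an imprinted RNA of fetal liver, had log2 differences of 0.41, -1.24, 0.58 and -0.14 in NEJ146, NEJ634, NEJ723 and NEJ687, at only 14.9 against 8.88 CPM in NEJ723. Bex1 had 0.44 (SE 0.17). The sides did not overlap in Afp over the NEJ146 sections, and the fitted log2 difference over the 4 tumours was 0.26 (SE 0.22).

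**Figure D3:**
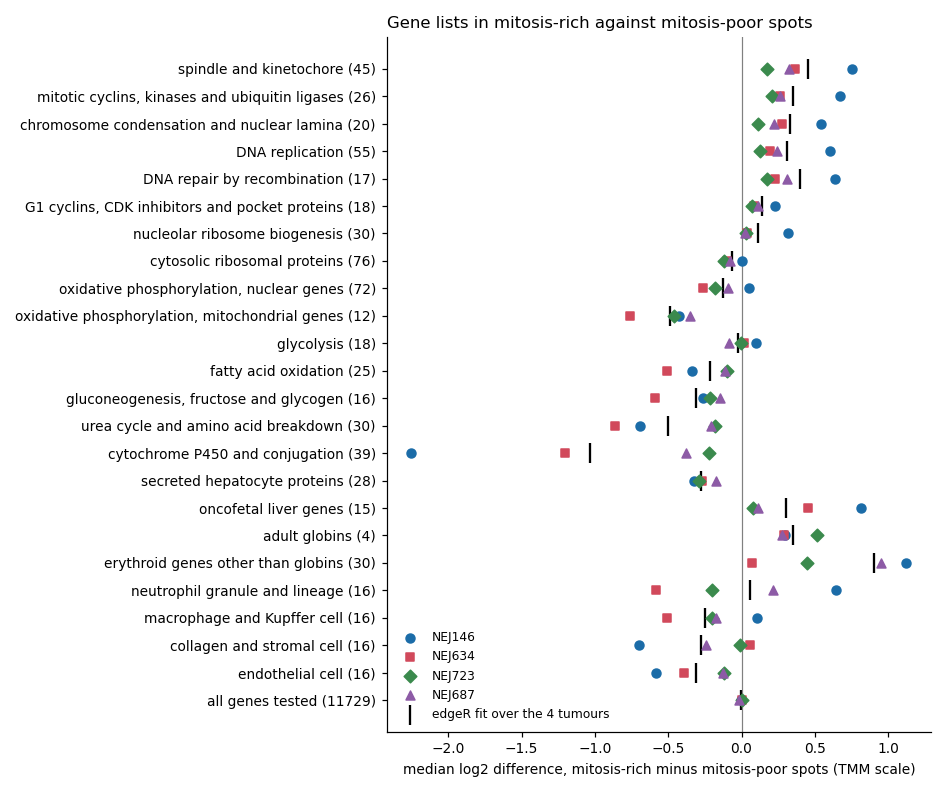
Median log2 difference of mitosis-rich minus mitosis-poor spots (horizontal axis, TMM scale) for each gene list, with the number of members tested in brackets, 1 symbol per tumour and a bar at the median of the edgeR fit. The spindle, mitotic, condensation, replication and repair lists lie right of 0 in all 4 tumours, and the P450, urea cycle, mitochondrial and secreted lists lie left of 0 in all 4.

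Blood genes were followed because erythroblasts divide. In the single-cell data of the paper, Mki67 was highest in a cluster that it matched to erythroid cells associated with hepatoblastoma. The 4 adult globin genes were higher in all 4 tumours, with a median of 0.35 and tumour medians of 0.30, 0.29, 0.52 and 0.28. That order was lost in some other settings. With spots thinned, 1 of the 4 was higher in all 4 tumours, with medians of -0.06 in NEJ634 and -0.01 in NEJ723. Without the globin-high spots (the top 20% of a section by globin share) 0 of 4 were, with -0.25 in NEJ634. That setting left out spots by the globin counts themselves, so it cannot test the globin order. Their summed level was 9322, 10665, 9624 and 9936 CPM in rich spots of NEJ146 A to D against 7672, 5019, 7710 and 8989 CPM in poor spots, 1016 against 788 in NEJ634, 3086 against 2056 in NEJ723 and 9663 against 8289 in NEJ687. Section B of NEJ146 held much of the difference in that tumour. Hba-a1 had a fitted log2 difference of 0.39 (SE 0.07, edgeR adjusted p = 0.134), Hba-a2 of 0.32 and Hbb-bs of 0.21. Hba-a1 and Hba-a2 are near-identical copies, so the division of counts between them is uncertain.

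Erythroid genes other than globins had a median of 0.90 over 30 genes, of which 16 were higher and 0 lower in all 4 tumours and 23 had an unadjusted p under 0.05. By tumour the median was 1.12, 0.07, 0.45 and 0.95 in NEJ146, NEJ634, NEJ723 and NEJ687, and without NEJ634 27 of the 30 were higher in the 3 remaining tumours, beside 18.5% of all genes, and leaving out any other tumour or section gave 15 to 17. With a minimum of 10 CPM, 9 of 16 were higher in all 4 tumours (background 14.7%), and without the globin-high spots 6 of 30 were (background 12.2%). The count was 5 of 30 with spots thinned (background 6.33%) and 2 of 30 when spots were placed by their neighbours alone (background 13.8%), while the list median stayed positive in both. The list summed to 761 to 922 CPM against 475 to 502 in NEJ146, to 379 against 337 in NEJ634, 667 against 534 in NEJ723 and 1990.2 against 1205 in NEJ687. Slc4a1, the band 3 anion exchanger of the red cell membrane, was at 79.5, 83.1, 72.8 and 56 CPM in rich spots of NEJ146 A to D and 21.1, 21.5, 21.3 and 17 CPM in poor spots. It was at 18.9, 75 and 296 CPM against 9.31, 47.1 and 141 in NEJ634, NEJ723 and NEJ687. Its rich side exceeded the poor side in 7 of 7 sections, by a fitted log2 difference of 1.04 (SE 0.17, edgeR adjusted p = 0.134). Tspan33 and Erfe (erythroferrone, the erythroblast hormone that restrains hepcidin) were named after their values were seen and had 1.0 (SE 0.13) and 1.15 (SE 0.14), both at an adjusted p of 0.102.

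Some genes of the list are used by other cells as well. Tfrc, the transferrin receptor, had 0.16 (SE 0.10), and Fech, which inserts iron into heme, had -0.13 (SE 0.10) with 0.17 in NEJ687 against -0.35 in NEJ146. Among the 7 other genes of heme synthesis the median was 0.02. Alas1, the form of the first enzyme used by hepatocytes, had -0.74 (SE 0.21) and was lower in all 4 tumours. Cd24a, placed on the bile duct list and also made by erythroblasts, was at 78.1 ± 9.9 against 30.2 ± 0.5 CPM in NEJ146 (SD, n = 4 sections), 74.1 against 35.5 in NEJ634, 76.2 against 49.8 in NEJ723 and 232 against 111 in NEJ687, a fitted log2 difference of 0.91 (SE 0.11, adjusted p = 0.102).

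The spots with most globin were only in part those with most mitosis. Of rich spots, 25.7% to 29.9% lay in the top 20% by globin share in NEJ146, 36.3% in NEJ687, 27.1% in NEJ723 and 17.2% in NEJ634. Of poor spots, 8.25% to 13.7%, 9.57%, 14.7% and 24.7% did, so NEJ634 had the opposite order. The top 20% by P450 share included 1.56% to 2.34% of rich against 50.7% to 53.9% of poor spots in NEJ146, 5.04% against 41.1% in NEJ634, 18.1% against 22% in NEJ687 and 15.4% against 26% in NEJ723. The rich side was the one with fewer P450-high spots in 7 of 7 sections.

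Markers of other cells are given for their whole lists. No marker of these lists was at 0 in all sections. Neutrophil genes had a median of 0.06, with tumour medians of 0.65, -0.58, -0.20 and 0.22 and 0 of 16 higher in all 4 tumours, and their summed level was 442 to 810 CPM against 327 to 467 in NEJ146 and 645 against 947 in NEJ634. Macrophage and Kupffer cell genes (median -0.25) were lower in all 4 tumours in 5 of 16 cases, but in 0 of 16 and at a median of -0.04 with spots thinned (background 8.23%), and their summed level was 1314 to 3098 CPM on the rich and 1465 to 3370 CPM on the poor side. Cd5l, a Kupffer cell protein, had 0.33 in NEJ146 but -1.23 in NEJ634, and C1qb, of complement, was -0.20 (SE 0.06). Endothelial genes had a median of -0.31 with 6 of 16 lower in all 4 tumours (background 13.5%) and 3 of 16 with spots thinned (background 8.23%). Their summed level was 234 to 449 against 231 to 477 CPM. Eng, an endothelial co-receptor of TGF-beta, had -0.44 (SE 0.12) and Plvap -0.33 (SE 0.12).

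Collagen and stromal genes (median -0.28) were lower in all 4 tumours in 2 of 16 cases, near the 13.5% of all genes. Their tumour medians ran from -0.70 in NEJ146 to 0.06 in NEJ634, and Col3a1 had -0.24 (SE 0.11). Eln, elastin, named after its values were seen, was lower in all 4 tumours at -0.83 (SE 0.11, adjusted p = 0.102). Bile duct genes (median -0.09 over 9) had medians of -0.77 in NEJ146 and 0.89 in NEJ634. Spp1 was at 59.9 ± 19.4 against 211 ± 15 CPM in NEJ146 (SD, n = 4 sections) but at 434 against 377 CPM in NEJ634, and Cldn7 was at 265 against 117 CPM in NEJ634 and 3.96 against 4.67 in NEJ687. Lymphocyte genes (6 of 14 tested, summed level 25.9 to 72.4 CPM on the rich and 32.2 to 64.2 on the poor side) and megakaryocyte genes (5 of 9 tested, 61.2 to 167 against 49.3 to 122 CPM) were low. Whether fewer cells of a type or less RNA per cell lies behind a difference between sides cannot be told apart in spots, and the part of these cells in the cell cycle values was not tested by cell type.

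The 2 sides were set beside the spots between them, with each section cut into 5 equal bins by score. In CPM without TMM scaling, spindle and replication lists, nucleolar genes and erythroid genes increased at every step from the lowest to the highest bin in 7 of 7 sections. P450 and urea cycle genes decreased at every step in 7 of 7. These steps include the shift that scaling takes out. After scaling, the nucleolar medians of rich minus poor were only 0.04, 0.03 and 0.02 in NEJ634, NEJ723 and NEJ687, and the erythroid median was 0.07 in NEJ634. In NEJ146 A the spindle list took the levels 762, 1052, 1141 and 1240 CPM in the lower 4 bins and 1354 in the highest. In NEJ687 its levels were 1057, 1134, 1185, 1218 and 1351 CPM. The P450 list took 18821, 10650, 8098, 6215 and 5328 CPM in NEJ146 A and 6514, 6004, 5820, 5521 and 5266 CPM in NEJ687, so its drop lay mostly at the first step in NEJ146 A, and the first step was also the largest of the 4 in NEJ687. Adult globins increased at every step in 1 of 7 sections, NEJ723, with 2056, 2152, 2338, 2496 and 3086 CPM. In NEJ146 B they were lowest in the lowest bin (5019 CPM) and highest in the middle bin (12052 CPM).

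**Figure D4:**
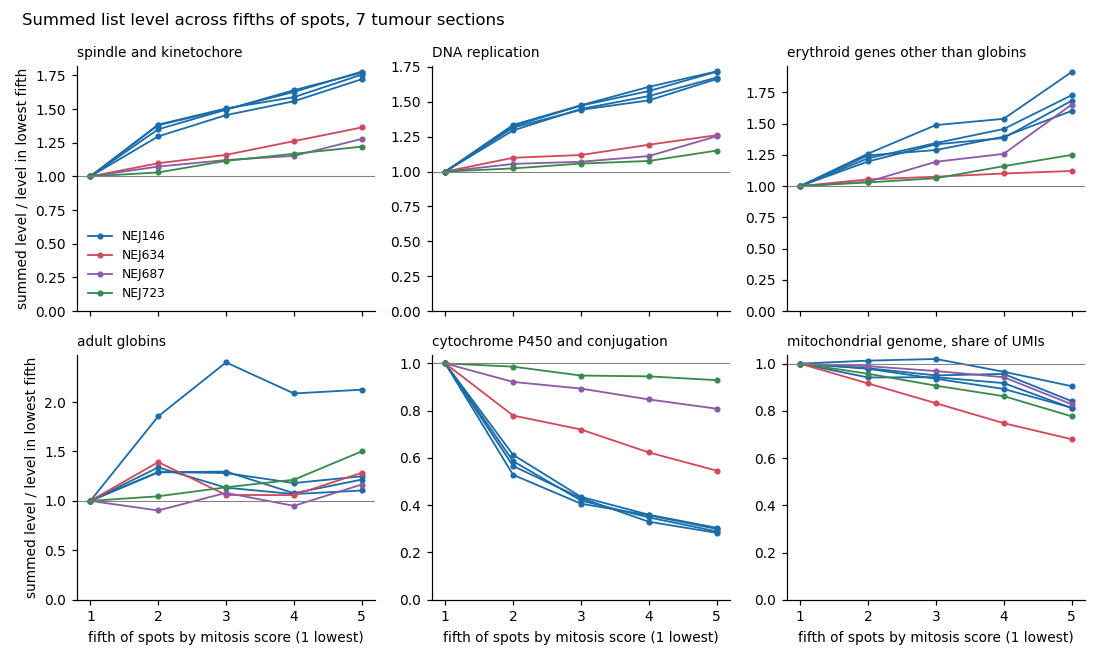
Summed level of 5 gene lists and the mitochondrial share of UMIs in each of 5 equal bins of spots by mitosis score (1 lowest, 5 highest), divided by the level in the lowest bin, with 1 line per section coloured by tumour. Spindle, replication and erythroid lines go up at every step in 7 of 7 sections and P450 lines go down at every step, while globin lines share no order. List levels are CPM without TMM scaling.

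To separate cell division from the other gene groups, the sides were chosen again within strata of the section. When rich and poor spots were taken within 5 strata of the P450 share, which narrowed the gap in that list without closing it, edgeR called 369 genes higher (3.15% of 11710 tested) and 704 lower (6.01%) at an adjusted p under 0.05. Cell cycle members were among them in 98 of 181 cases, all higher. They comprised 35 of 45 spindle, 17 of 26 mitotic, 13 of 20 condensation, 24 of 55 replication and 7 of 17 repair genes, and 2 of the G1 list. With edgeR's adjusted p in brackets, Ube2c rose with a log2 difference of 0.32 (adjusted p = 0.0013), Cenpa with 0.27 (0.0025), Stmn1 with 0.19 (0.0047) and Mcm6 with 0.18 (0.011). Plk1, chosen after its values were seen, was at 0.27 (0.020). Spc24 (0.10, 0.270) and Cks2 (0.07, 0.416) did not pass.

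The metabolic and secreted lists, apart from the P450 list on which the spots were matched, had calls in that comparison. Beside 6.01% of all genes called lower, urea cycle and amino acid genes were lower in 24 of 30 cases, plasma proteins in 27 of 28, cholesterol genes in 11 of 22, gluconeogenesis genes in 5 of 16, fatty acid oxidation genes in 6 of 25, and mitochondrial genes in 11 of 12. Ass1 fell by 0.27 on the log2 scale (adjusted p = 0.00012), Gnmt fell by 0.25 (0.0010), Alb fell by 0.42 (8.8e-05) and mt-Co1 fell by 0.44 (7.8e-07). Within strata of their own summed share, 31 of 39 P450 genes were lower, with a median of -0.37 in place of -1.03, and Cyp3a11 fell by 0.74 (2.4e-06). Ribosomal proteins were lower in 18 of 76 cases and nuclear oxidative phosphorylation genes in 17 of 72. Of the oncofetal list 4 members were higher, Bex1 among them (0.19, adjusted p = 0.043), and Afp was at -0.03 (0.867). H19 was at 0.05 (0.664).

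Erythroid genes other than globins were called higher in 24 of 30 cases within P450 strata, beside 3.15% of all genes, with a median of 0.75, and Slc4a1 rose by 0.93 (adjusted p = 5.2e-07). Globins were called in 0 of 4 cases by edgeR in either direction there, with a median of 0.19 and tumour medians of -0.87, 0.87, 0.57 and 0.27. Within 5 strata of the globin share, edgeR called 1 gene higher (0.00852%) and 31 lower (0.264%), the spindle median was 0.39 and the replication median 0.26, and the erythroid median was 0.38 in place of 0.90. The P450 median was -0.99 there and the mitochondrial median -0.49. The spindle median within globin strata lay within 0.1 of the one without them, and the erythroid median was lower. Matching on globin did not even out the other erythroid genes, and no setting was matched on those. The part of dividing erythroblasts in the spindle values was therefore not tested.

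With spots thinned, the cell cycle lists together had tumour medians of 0.42, 0.12, 0.02 and 0.15 in NEJ146, NEJ634, NEJ723 and NEJ687. edgeR called 9 genes higher (0.0770%) and 167 lower (1.43%) in that setting, among them 2 cell cycle and 3 erythroid genes higher and 20 P450 and 9 mitochondrial genes lower.

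Depth was matched as well. Within 10 strata of total UMIs, where the median UMIs of the sides were nearly equal, edgeR called 17 genes higher (0.145%) and 54 lower (0.462%), and the spindle, replication, P450, mitochondrial and erythroid medians were 0.43, 0.29, -0.96, -0.39 and 0.82. Within strata of depth and globin together, an alternative chosen after seeing the data, 24 genes were higher (0.205% of 11713) and 160 lower (1.37%). The 24 included 10 cell cycle genes, 7 of them of the spindle list, and 2 erythroid genes. Nuf2 was at 0.42 there (adjusted p = 0.053), mt-Co1 at -0.36 (0.011), Cyp3a11 at -1.34 (0.037) and Slc4a1 at 0.50 (0.076).

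The sides were last chosen by the mean score of the adjacent spots alone, also an alternative chosen after seeing the data, so that no spot's own counts placed it. The 5 selecting genes, summed over each side, were at 504, 501, 506 and 547 CPM on the side with rich surroundings against 232, 237, 243 and 266 CPM in NEJ146 A to D, 834 against 608 in NEJ634, 708 against 557 in NEJ723 and 547 against 403 in NEJ687. Rich surroundings went with the higher level in 7 of 7 sections, and for 4 of the 5 genes singly, the exception being Ccnb2 in NEJ634 at 61.2 against 64.1 CPM. These levels are a description, because the same 5 genes in adjacent spots set the sides. Adjacent spots can also lie on the same side. The list medians were 0.38 for spindle, 0.32 for replication, -1.01 for P450, -0.66 for mitochondrial and 0.95 for erythroid genes. By edgeR, 0 genes were called in either direction in that split, and 2 of 30 erythroid genes were higher in all 4 tumours, beside 13.8% of all genes. Of the P450 genes, 21 of 39 were lower in all 4 in that split, beside 10.6% of all genes.

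**Figure D5:**
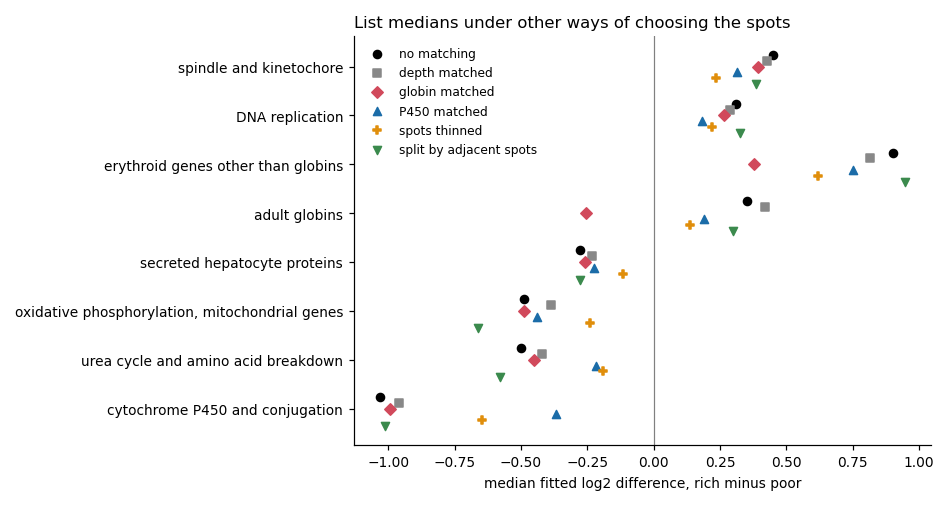
Median fitted log2 difference of rich minus poor spots for 8 gene lists (horizontal axis) under 6 ways of choosing the sides, 1 symbol each: no matching, within strata of depth, of globin share or of P450 share, with spots thinned, and by the adjacent spots. Spindle, replication and erythroid medians stay right of 0 and the secreted, mitochondrial, urea cycle and P450 medians left of 0 throughout, while the globin median is -0.25 with globin matched.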

How the data were processed

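Visium UMI counts of 10 sections were used as the authors deposited them, as raw counts per gene and spot (31053 features) on unfiltered matrices, with positions and in-tissue calls for the single-section tissues. The submitters' processing notes name Cell Ranger 6.0 for NEJ146 and Space Ranger 1.3 with mm10 for the others, and the build for NEJ146 is not given in the sources used here. NEJ146 spots took array positions from the same barcodes of other sections.

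Members, gene lists (32 lists, 765 entries) and tests were chosen with earlier results of these data known. Spots with at least 2000 UMIs (NEJ146 8000) were scored, ties at an edge were broken by a seeded order, and counts were summed per side. edgeR 4.0.16 (R 4.3.3, quasi-likelihood, TMM, tumour as a block, Benjamini-Hochberg at 0.05) tested genes averaging 2 CPM or more, and edgeR alone was run on simulated counts first. DESeq2 1.42.0 and limma 3.58.1 were alternatives. CPM values are shares of the summed UMIs of a side, and log2 differences per tumour are of TMM-scaled CPM plus 1. No gene passed, so the rule for named genes gave up to 3 members of highest level per list, of which those described are named, and some are not reported here. Others are marked as named after their values were seen. Motif shares were given for whole lists, because no members were called.

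The 4 tumours are 4 tissues named in the labels. That each came from its own animal is not stated there, and the 4 NEJ146 sections are cuts of 1 tissue and so are not replicates. The p-values of edgeR rest on a spread between these tissues that is moderated over genes. Each SE is the size of the fitted log2 difference divided by the square root of its F statistic. It is not the spread of a gene's 4 tumour differences and can be smaller than that spread. Intervals of counts are exact Poisson intervals and cover counting error only. Spots were thinned in 1 alternative and no doublet caller was run. The other alternatives changed the scaling, the filter, the size of the sides, ties, depth, the UMI minimum, erythroid or P450 content, the scoring genes and the total, or left out 1 tumour or section.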

Additional observations from a re-analysis of the deposited data

Results flagged for a closer look

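Of 100 gene and list differences examined, 8 had a NEJ146 section far from the other 3 of that tumour, by Dixon's test, which chance passes in 5% of cases. Another 6 had opposite signs in NEJ146 and in all of NEJ634, NEJ723 and NEJ687, a difference between tumours that was not tested, since NEJ146 is 1 tissue. All values are log2 differences of rich minus poor spots.

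Section B of NEJ146 stood apart in the alpha globins, at 0.999 for Hba-a1 and 0.94 for Hba-a2 against 0.02 to 0.17 and -0.05 to 0.06 in sections A, C and D. The same section had 0.11 for the macrophage list median against 0.06 in each other section, 0.071 for C1qb against -0.14 to -0.11, and -2.30 for Gstm1 against -2.49 to -2.46. Section D had 0.086 for the neutrophil list median against 0.76 to 0.79 and -1.03 for Eng against -0.81 to -0.76. Section C had -0.32 for mt-Co3 against -0.45 to -0.44.

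As the mean of its 4 sections NEJ146 was positive where the 3 other tumours were negative in 6 cases. The list medians concerned were 0.052 for nuclear oxidative phosphorylation genes and 0.075 for macrophage and Kupffer cell genes, and the genes were Uqcr11 at 0.18, Cox4i1 at 0.12, Gapdh at 0.084 and Cd5l at 0.35.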

How the results depend on the processing

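Of the results that answer a comparison, list medians included, 1111 values under alternatives stayed near the main one and 68 moved, and among named genes 27 of the values changed sign. edgeR called 0 genes higher and 0 lower, and this changed to 31 and 141 with DESeq2, 26 and 90 without the filter on low counts, 4 and 4 with sides of 10% of the spots, 17 and 54 with depth matched, 9 and 167 with spots thinned, 1 and 31 with globin matched, 369 and 704 with P450 matched, 24 and 160 with depth and globin matched, and 0 and 6 without the globin-high spots. Leaving out 1 tumour or 1 NEJ146 section gave 0 higher and 0 to 22 lower, the 22 being without NEJ687. No gene was called by limma, nor by edgeR without the tumour block, with RLE size factors, library totals only, a minimum of 10 CPM, NEJ146 sections summed, larger sides, other orders of ties, a deeper UMI minimum, Mki67 and Top2a alone, a total without mitochondrial genes, NEJ146 tissue set by mitochondrial share, or the split by adjacent spots. The last 2 and the matching on depth and globin together were chosen after seeing the data. The cause of each move was not tested unless the setting itself is one.

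Erythroid members higher in every tumour were 16 of 30 (background 14.0%), and 9 of 16 with a minimum of 10 CPM (14.7%), 5 of 30 with spots thinned (6.33%), 6 of 30 without globin-high spots (12.2%), 2 of 30 with the split by adjacent spots (13.8%) and 15 to 27 when 1 tumour or section was left out. With spots thinned, 41 cell cycle members were higher (background 6.33%) and 15 P450 members lower in every tumour (8.23%), and with the split by adjacent spots 21 P450 members were lower (background 10.6%).

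With limma and with library totals only, list medians moved to 0.25 and 0.26 (G1 cyclins), 0.053 and 0.053 (ribosomal proteins), 0.16 and 0.18 (p53 targets), 0.10 and 0.10 (glycolysis), 0.0044 and 0.0040 (fatty acid synthesis), 0.041 and 0.046 (hypoxia), -0.15 and -0.16 (secreted proteins) and 0.48 and 0.47 (globins). The thinned medians were 0.055 (G1 cyclins), -0.058 (p53 targets), -0.24 (mitochondrial genes), -0.016 (hypoxia), -0.12 (secreted proteins), 0.14 (globins) and 0.50 (lymphocyte). Secreted proteins were at -0.21 and -0.35 and globins at 0.24 and 0.78 with larger sides and with sides of 10%. Globins were at -0.25 with globin matched, 0.19 with P450 matched, -0.20 with depth and globin matched, 0.21 without globin-high spots and 0.51 with Mki67 and Top2a alone. The erythroid median was 0.38, 0.41 and 0.34 with globin matched, with depth and globin matched and without globin-high spots. Depth matching gave -0.19 for fatty acid synthesis, depth and globin matching -0.049 for it and -0.013 for ribosomal proteins, and a minimum of 10 CPM -0.49 for lymphocyte genes. Leave-one-out ranges were -0.19 to 0.023 (fatty acid synthesis) and -0.18 to 0.21 (lymphocyte).

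Signs changed for the log2 difference of Uqcr11 (0.016 with limma, 0.015 with library totals, 0.0096 thinned), Cox4i1 (0.018 and 0.018), Gapdh (0.074 and 0.074), H19 (0.024 with limma, 0.052 with P450 matched, 0.00014 with depth and globin matched, and -0.46 to 0.25 when 1 tumour was left out, the highest without NEJ634), Cd5l (0.0016 thinned, and -0.52 to 0.0018 when 1 tumour was left out, the highest without NEJ634), Afp (-0.027 with P450 matched, and -0.037 without NEJ146 to 0.45 without NEJ723), Cks2 (-0.013 without NEJ146) and for the log2 difference of Spc24 (-0.0072 with larger sides, -0.012 with Mki67 and Top2a alone, -0.059 with adjacent spots, and -0.044 without NEJ146 to 0.093 without NEJ634, with -0.00066 without NEJ687). The globin genes Hbb-bs, Hba-a1 and Hba-a2 were at -0.34, -0.22 and -0.29 with globin matched and at -0.28, -0.17 and -0.23 with depth and globin matched. Few UMIs of the selecting genes per spot limit how well single spots are placed.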
